A study of Mus musculus with 40 samples.

Results

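Of the 40213 gene symbols in the count tables, 8 were followed through 40 mRNA-sequencing libraries of mouse midbrain and spinal cord. Hpcal4, Cemip and Smad3 were selected on the midbrain comparison of MPTP-Veh with Con, where they passed the threshold for differential expression. Neurod6, Tbr1, Nrgn, Camk2a and Lamp5 were chosen by name as cortex and hippocampus genes that earlier results of the same data had put beside them. All 8 were found in the tables. The 8 genes had therefore been chosen by values of the Con and MPTP-Veh midbrain libraries. Every comparison that uses either group in the midbrain is given as a description, and nothing is concluded from a p-value in it.

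The mice were C57BL/6N males of 8 weeks. Con mice received saline. The mice of the other 4 groups received the dopaminergic neurotoxin MPTP intraperitoneally, as 4 injections of 20 mg/kg at intervals of 2 h. MPTP-Veh mice were then injected with saline at the acupoint GB34, and the mice of all 3 SUEHP groups (MPTP-SU+S, MPTP-SU+T and MPTP-SU) shared 4 injections of SUEHP, a herbal pharmacopuncture preparation, at that point, 2 per week from 1 week after MPTP. MPTP-SU+S mice also received the CB1 receptor antagonist SR141716A (SR141714A in the sample labels) at 3 mg/kg, and MPTP-SU+T mice the PPARγ inhibitor T0070907 at 5 mg/kg. Acute MPTP in adult mice models the loss of dopamine terminals and neurons but not the slow course of the human disease. Each group had 4 replicates per tissue. The labels do not say that these came from separate animals, so p-values measure the spread between these samples.

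Pyramidal neurons of the cortex and hippocampus carry a set of genes that midbrain neurons use little or in few cells. It includes the transcription factors that specify them and the calcium and calmodulin proteins of their synapses. Neurod6 and Tbr1 are transcription factors of these neurons, Camk2a is the alpha subunit of calcium/calmodulin-dependent kinase II, and Nrgn (neurogranin) binds calmodulin in dendritic spines. Lamp5 is a membrane protein of certain cortical neurons. Hpcal4 is a neuronal calcium sensor of the visinin-like family, Cemip binds hyaluronan, a sugar polymer of the extracellular matrix, and takes part in its breakdown, and Smad3 carries TGF-β and activin signals from the receptor to the nucleus.

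Library totals were 11958200 to 16639823 counts in the midbrain and 14642808 to 16615378 in the spinal cord. The midbrain library MPTP-Veh 4 stood apart. Its 13 mitochondrially encoded genes held 1.35% of the counts, against 9.92 to 17.5% in the other 19 midbrain libraries, and the summed level of 6 oligodendrocyte markers was 35361.7 CPM (counts divided by the scaled library total) there against 11022.4 to 13618.2 in the other MPTP-Veh libraries. Results that rest on it are given with and without it. The midbrain label was borne out by its markers: of 14 midbrain markers, 12 passed the test as higher in midbrain than in spinal cord and 1 as lower. Among the 12 were the monoamine transporter gene Slc18a2, the dopamine transporter gene Slc6a3 and Th, the rate-limiting enzyme of dopamine synthesis, with differences of 7.78, 9.87 and 4.20 on the log2 scale.

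Hpcal4, Cemip and Smad3 were lower in every midbrain MPTP-Veh library than in every Con library, and Hpcal4 and Smad3 also lay below Con in every SUEHP library. Levels are CPM scaled by TMM within a tissue. Hpcal4 stood at 167.6, 306.2, 180.3 and 216.7 CPM in the 4 Con libraries and at 101.2, 91.6, 133.2 and 87.8 in the 4 MPTP-Veh libraries. Its MPTP-SU libraries held 122.5, 105.8, 116.2 and 98.8 CPM, its MPTP-SU+S libraries 86.1, 108.3, 93.4 and 113.6, and its MPTP-SU+T libraries 104.8, 104.2, 136.2 and 101.6. All 16 MPTP libraries thus lay under the lowest Con library, and the 4 MPTP groups overlapped each other. By group mean ± SD (n = 4), Hpcal4 was at 217.7 ± 62.5 CPM in Con and 103.4 ± 20.6 in MPTP-Veh.

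Smad3 had the same layout at its own level. Its Con libraries held 20.1, 27.8, 19.7 and 21.7 CPM, and its MPTP-Veh libraries 11.4, 11.2, 14.6 and 8.37. The 12 SUEHP libraries ranged from 12.0 to 16.9 CPM with a median of 14.3. None of the 16 MPTP libraries reached the lowest Con value, and MPTP-Veh overlapped the SUEHP groups.

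Cemip was the one of the 3 that did not separate Con from the SUEHP groups. It was counted at 5.28, 8.17, 4.61 and 4.53 CPM in Con and at 2.72, 2.16, 2.77 and 2.26 in MPTP-Veh. The values were 3.49, 4.37, 4.3 and 4.77 CPM for MPTP-SU. MPTP-SU+S held 2.59, 3.69, 2.84 and 3.08 CPM, and MPTP-SU+T 3.42, 3.68, 3.8 and 3.53. MPTP-SU reached into the Con range, and all 4 MPTP-SU libraries lay above all 4 MPTP-Veh libraries. The share of all genes with that order was not counted, and 13.5% of all genes met the call between these groups. The MPTP-Veh libraries also had a part in choosing Cemip, so nothing is read from this order.

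The fitted log2 fold changes of MPTP-Veh against Con were -1.07 ± 0.18 (SE) for Hpcal4, -1.18 ± 0.19 for Cemip and -0.97 ± 0.15 for Smad3. These are the values that chose the 3 genes. The call (adjusted p-value under 0.05 and over 1.5-fold) was met by 3 genes of 16629, or 0.018%, and those were these 3. Camk2a at -1.29 ± 0.25 did not meet it, with an adjusted p-value of 0.0931 in the edgeR quasi-likelihood test. Neither did Tbr1 at -2.85 ± 0.73, with 0.13, or Neurod6 at -1.93 ± 0.64, with 0.131. The unadjusted p-values of these last genes, 0.00103 and 0.00733, lay further apart, so the adjusted values do not rank genes finely here. With a replicate block, without the filter on low counts or with the 8 libraries of the comparison alone, 0 genes met it. With 1 of those 8 left out in turn, each of the 3 met it in 2 of 8 fits. Camk2a also met it in 2 and Tbr1 in 1. Without MPTP-Veh 4 none of the 8 genes met the call, and the log2 fold changes of Hpcal4, Cemip and Smad3 were -1.0, -1.15 and -0.85. In bulk tissue, fewer cells of a type and less RNA per cell cannot be told apart.

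**Figure D1:**
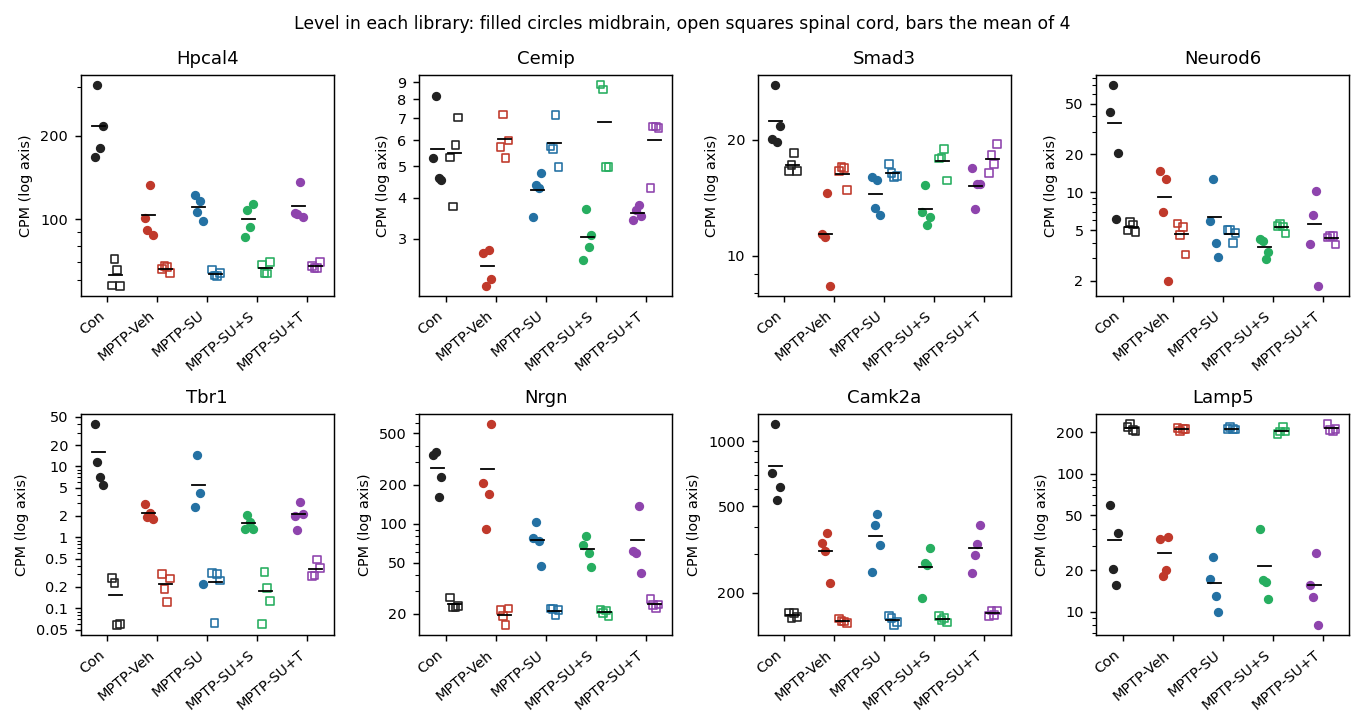
CPM of each of the 8 genes (vertical log axes, separate for each gene) by group, with filled circles for midbrain, open squares for spinal cord and bars for the mean of 4 libraries. Hpcal4, Smad3 and Camk2a in midbrain show all 4 Con circles above all 16 MPTP circles, whereas the spinal cord squares span a narrower range than the midbrain circles in each panel, and Lamp5 lies far higher in spinal cord than in midbrain.

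The promoters of Hpcal4, Cemip and Smad3 are shown because these are the 3 genes that met the call. They are RefSeq sequences of build GRCm38.p6, from 250 bases before to 50 bases after the annotated start, 5′ to 3′ on the gene's strand. RefSeq windows were matched for 7 of the 8 genes. Capitals mark CAGATG, an E-box form that NeuroD proteins bind, the T-box form AGGTGTGA, and CAGAC, the SMAD box, or their reverse complements. The windows lie at chr4:123183254-123183553 on the plus strand for Hpcal4, chr7:84086456-84086755 on the minus strand for Cemip and chr9:63757945-63758244 on the minus strand for Smad3.
Hpcal4: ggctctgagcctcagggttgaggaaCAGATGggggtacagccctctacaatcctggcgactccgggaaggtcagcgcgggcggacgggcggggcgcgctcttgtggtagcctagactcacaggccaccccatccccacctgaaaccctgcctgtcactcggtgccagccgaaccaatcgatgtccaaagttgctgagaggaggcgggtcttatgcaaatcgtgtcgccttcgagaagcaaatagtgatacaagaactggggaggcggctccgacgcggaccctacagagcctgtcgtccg
Cemip: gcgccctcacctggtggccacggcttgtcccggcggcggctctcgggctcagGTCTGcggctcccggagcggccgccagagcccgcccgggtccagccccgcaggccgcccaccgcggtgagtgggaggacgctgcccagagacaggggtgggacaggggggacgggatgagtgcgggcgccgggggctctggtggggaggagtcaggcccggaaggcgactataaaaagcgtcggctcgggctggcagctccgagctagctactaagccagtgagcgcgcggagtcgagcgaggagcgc
Smad3: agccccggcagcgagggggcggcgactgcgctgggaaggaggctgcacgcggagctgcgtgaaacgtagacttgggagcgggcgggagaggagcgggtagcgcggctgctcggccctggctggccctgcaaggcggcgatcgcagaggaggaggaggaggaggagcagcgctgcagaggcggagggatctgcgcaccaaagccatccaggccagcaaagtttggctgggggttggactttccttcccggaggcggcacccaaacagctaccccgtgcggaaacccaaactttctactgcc
Hpcal4 held 1 E-box and Cemip 1 SMAD box, and Smad3 held none of the 3 motifs. Across 32851 mouse promoters of 300 bases, 17.2% held CAGATG, 1.28% the T-box form and 49.6% CAGAC on either strand. Neurod6 and Tbr1, the 2 transcription factors among the 8, held none of the 3 motifs in their windows, while Nrgn and 1 of 2 windows of Lamp5 held both CAGATG and CAGAC. A match describes the letters of a window and not a bound site.

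Of the cortex and hippocampus genes, Camk2a and Tbr1 were lower in all MPTP-Veh libraries than in all Con libraries, and Neurod6, Nrgn and Lamp5 overlapped. Camk2a had 710.3, 1199.8, 534.2 and 610.9 CPM in Con and 339.4, 310.9, 377.5 and 222.0 in MPTP-Veh, a log2 fold change of -1.29. Its 12 SUEHP libraries lay between 189.1 and 462.9 CPM, so that all 16 MPTP libraries were under the lowest Con library. Tbr1 stood at 39.7, 11.7, 7.2 and 5.51 CPM in Con and at 2.96, 1.96, 2.17 and 1.79 in MPTP-Veh. One Con library held far more Tbr1 than the other 3, and 1 MPTP-SU library, at 14.5 CPM, reached into the Con range while another held 0.22.

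Neurod6 had the widest ratio of highest to lowest within Con, and Tbr1 the largest SD relative to its mean. The 4 Neurod6 Con libraries held 42.9, 70.7, 6.13 and 20.4 CPM, and the MPTP-Veh libraries 14.7, 6.93, 12.8 and 1.98. The lowest Con library was below 3 of the 4 MPTP-Veh libraries, although the group means were 35.0 ± 28.2 CPM and 9.11 ± 5.8 (SD, n = 4). The 12 SUEHP libraries had a median of 4.03 CPM and a highest value of 12.7.

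Nrgn and Lamp5 did not share the difference between Con and MPTP-Veh. Nrgn stood at 337.4, 356.3, 159.9 and 229.1 CPM in Con and at 204.5, 91.5, 169.0 and 590.1 in MPTP-Veh, where the highest value is the library MPTP-Veh 4. With that library the log2 fold change was -0.04 ± 0.45 (SE), and without it -0.81 ± 0.36. In the 12 SUEHP libraries Nrgn ran from 41.6 to 136.6 CPM, all under the lowest Con library. Lamp5 had 59.1, 20.5, 15.7 and 37.5 CPM in Con and 33.5, 18.3, 20.2 and 34.8 in MPTP-Veh, so MPTP-Veh lay wholly inside the Con range, and its log2 fold change was -0.32 ± 0.44.

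Counted over the 8 genes, 5 had every Con library above every MPTP-Veh library (Hpcal4, Cemip, Smad3, Tbr1 and Camk2a), where 6.03% of the 16629 tested genes had the same order. Every Con library was above all 12 SUEHP libraries for 4 of the 8 (Hpcal4, Smad3, Nrgn and Camk2a; 3.99% of all genes), and above all 16 MPTP libraries for 3 (Hpcal4, Smad3 and Camk2a; 0.661%). The 8 genes were chosen on these libraries and nothing is read from these counts. The median log2 fold change of the 8 was -1.13 in MPTP-Veh against Con. Against the same Con libraries it was -1.16 with T0070907, -1.33 with SR141716A and -1.05 with SUEHP alone. The median over all tested genes was within 0.016 of 0 in each comparison.

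The counts of the 8 against Con are given as a description, since the same Con libraries chose the genes. The call was met by 2 of the 8 in MPTP-SU (Hpcal4 and Camk2a; 0.764% of all genes), by 7 in MPTP-SU+S (all but Lamp5; 0.704%) and by 2 in MPTP-SU+T (Hpcal4 and Camk2a; 0.156%). Neurod6 gave -2.45 ± 0.66 (SE), -3.25 ± 0.69 and -2.63 ± 0.66 on the log2 scale in the 3 groups, beside -1.93 ± 0.64 in MPTP-Veh. Tbr1 gave -1.56 ± 0.68, -3.32 ± 0.75 and -2.88 ± 0.73, and these 2 transcription factors had wider steps than Hpcal4, Cemip, Smad3, Camk2a and Lamp5 in each group. Camk2a gave -1.07 ± 0.25, -1.54 ± 0.25 and -1.24 ± 0.25. Lamp5 gave -1.02 ± 0.45, -0.63 ± 0.44 and -1.07 ± 0.45. Without MPTP-Veh 4, whose values enter the shared estimate of the spread, the call was met by 5, 7 and 6 of the 8. All 4 comparisons use the same Con libraries, so they are not separate sightings of 1 difference, and nothing is read from these counts.

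For MPTP-SU against MPTP-Veh, Cemip was higher by 0.77 ± 0.20 (SE) on the log2 scale and Nrgn gave -1.81 ± 0.46. Both were inside the threshold that 13.5% of all genes met, which is a description only, since the MPTP-Veh libraries had a part in choosing the genes. The other 6 log2 fold changes ran from -0.71 for Lamp5 to 1.29 for Tbr1, and Hpcal4 gave 0.10 ± 0.17. Without MPTP-Veh 4, Cemip gave 0.73 ± 0.21 and Nrgn -1.05 ± 0.36, only Cemip was inside the threshold, and the share of all genes inside it was 3.4%.

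Other genes of the forebrain lay beside the 8 in the same comparisons. A list of 16 cortex and hippocampus genes without the 8 was used, of which 15 were tested. Its median log2 fold change was -1.48 in MPTP-Veh against Con, with 13 of 15 below 0. That 0 of them met the call there was fixed in advance, since only Hpcal4, Cemip and Smad3 met it. Slc17a7, the vesicular glutamate transporter of cortical neurons, gave -1.87 ± 0.51 (SE). In MPTP-SU+S against Con 6 of the 15 were lower and met the call, among them Icam5, an adhesion molecule of forebrain dendrites, at -2.67 ± 0.47, Neurod2, a transcription factor of cortical neurons, at -2.61 ± 0.45 and Itpka, an inositol trisphosphate kinase of dendritic spines, at -2.28 ± 0.41. In MPTP-SU and MPTP-SU+T against Con 3 and 2 of the 15 were lower and met it, Neurod2 and Itpka in both. Of all tested genes, 0.704% met the call in MPTP-SU+S against Con, 0.764% in MPTP-SU and 0.156% in MPTP-SU+T. These comparisons use the Con libraries that chose the 8 genes, and the list was chosen with earlier results of these data known. Nothing is read from these counts.

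Summed over its 16 genes, the forebrain list held 859.6, 1199.6, 594.9 and 730.9 CPM in the Con libraries and 501.9, 445.5, 547.0 and 459.4 in MPTP-Veh. The SUEHP groups held 479.0 to 704.7 CPM in MPTP-SU, 422.3 to 566.5 in MPTP-SU+S and 478.1 to 635.9 in MPTP-SU+T. Con lay above MPTP-Veh and MPTP-SU+S without overlap and overlapped the other groups. Among the Con libraries, Con 2 was highest for this list and for Hpcal4, Cemip, Smad3, Neurod6, Nrgn and Camk2a, and Con 1 was highest for Tbr1 and Lamp5. No list gene was at 0 in every midbrain library.

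Among lists for other regions, that of the hypothalamus, which borders the midbrain, had a median log2 fold change near that of the 8 genes. It was -1.17 in MPTP-Veh against Con, with 6 of 7 tested genes below 0, and -0.95 with SUEHP alone, -1.06 with SR141716A and -1.32 with T0070907, with 6, 6 and 7 below 0. No gene of it met the call in these 4 comparisons. In MPTP-Veh against Con this was fixed in advance, since only Hpcal4, Cemip and Smad3 met the call. Its 10 genes summed to 5.86 to 466.2 CPM in Con and 7.79 to 660.7 in MPTP-Veh, each range set by 1 high library. The 10 hippocampal markers summed to 241.8 to 415.9 CPM in Con and 279.2 to 424.5 in MPTP-Veh. The 8 cortical interneuron markers summed to 733.2 to 867.8 CPM in Con and 848.9 to 870.9 in MPTP-Veh. Some of these 8 markers were lower and met the call against Con under SUEHP, and 0 were higher and met it. With SUEHP alone they were Npy at -0.84 and Sst at -0.87 (log2). With SR141716A they were Npy at -1.37 and Lhx6 at -2.72, and with T0070907 Npy at -1.27. The list medians were -0.13, -0.26 and -0.10, with 5, 4 and 4 of 8 below 0. The same Con libraries chose the 8 genes, so nothing is read from this. Markers of the thalamus, which borders the midbrain, summed to 685.2 to 1055.5 CPM in Con, 356.9 to 1280.9 in MPTP-Veh and 1100.6 to 2225.7 in MPTP-SU. The 6 markers of the leptomeninges summed to 227.1 to 415.5 CPM in Con and 130.4 to 185.7 in MPTP-SU. The part of the dissected region, or of the cells in it, in the differences of the 8 genes was not tested.

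**Figure D2:**
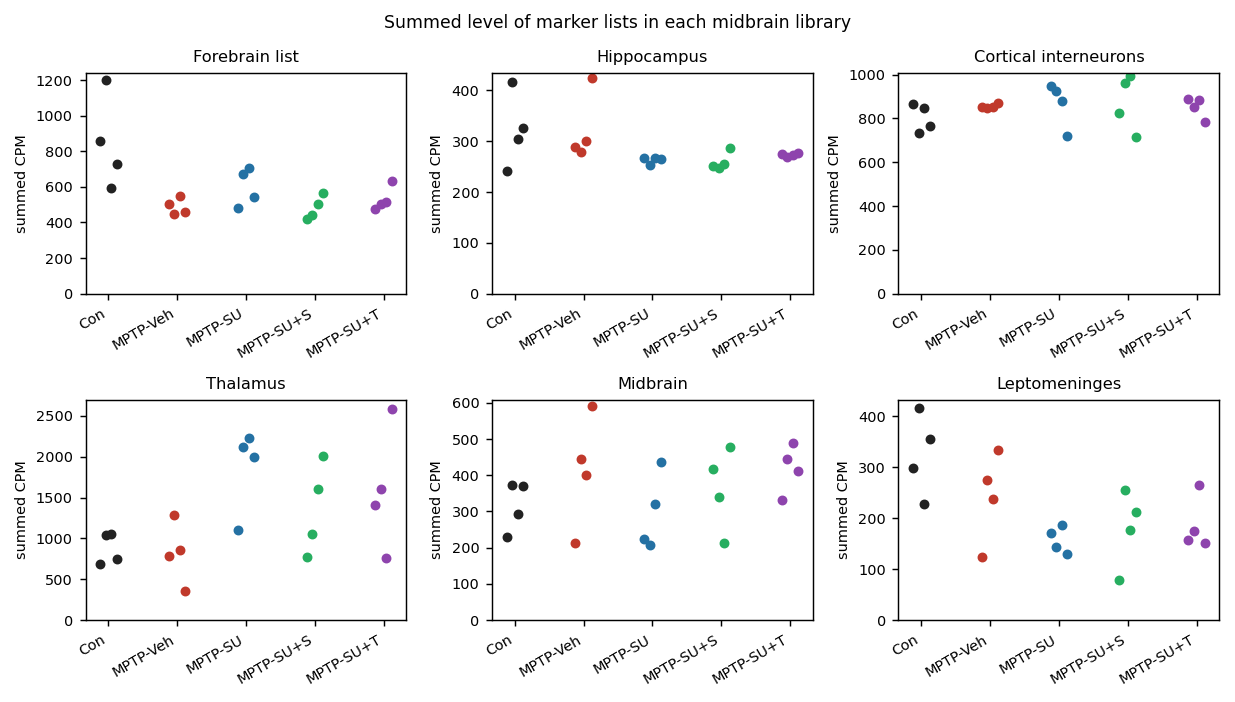
Summed CPM of 6 marker lists (vertical axes from 0) in each of the 20 midbrain libraries, by group. The forebrain list, which holds none of the 8 genes, runs from 594.9 to 1199.6 CPM in Con and from 445.5 to 547.0 in MPTP-Veh, while the hippocampal list overlaps between these groups.

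Among the partners of the 8 genes in their own pathways, the hyaluronan list had a median near that of all genes in MPTP-Veh. That of the SMAD list lay somewhat below it. Only Hpcal4, Cemip and Smad3 met the call in MPTP-Veh against Con, and no list holds them. Each count of 0 in that comparison was therefore fixed in advance. Of 22 tested genes of the SMAD pathway, 0 met the call in any of the 4 groups against Con, and the median log2 fold change in MPTP-Veh was -0.18, with the ligand genes Tgfb1 and Tgfb2 at 0.32 ± 0.26 (SE) and -0.54 ± 0.22. Among 15 tested genes of hyaluronan synthesis, binding and breakdown, 0 met it against Con and the median in MPTP-Veh was 0.08, with the hyaluronan synthase gene Has1 at 0.09 ± 0.39. Of the 11 tested calcium sensors related to Hpcal4, 0 met it in MPTP-Veh or MPTP-SU+T and 2 in each of MPTP-SU and MPTP-SU+S: Hpca (hippocalcin), at -1.15 ± 0.25 and -1.12 ± 0.25, and Kcnip2, a potassium channel partner, at -1.70 ± 0.40 and -1.89 ± 0.40. Of the 16 tested genes of calmodulin signalling around Camk2a and Nrgn, 0 met it against Con, and the other kinase subunits Camk2b and Camk2d gave 0.14 ± 0.18 and 0.09 ± 0.13 in MPTP-Veh. Of the 10 tested transcription factors and layer genes around Neurod6 and Tbr1, 0 met it in MPTP-Veh, 1 in MPTP-SU and MPTP-SU+T (Neurod2) and 3 in MPTP-SU+S, namely Neurod2, Fezf2 and Bcl11a. Neurod2 and Fezf2 are also genes of the forebrain list.

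The comparisons that share no library with the choice of the genes ask whether the 8 differ among the SUEHP groups of the midbrain. SR141716A added to SUEHP gave 0 of 8 genes past the threshold, and so did T0070907 added to SUEHP and the difference between the 2 antagonists. The same tests, edgeR's quasi-likelihood test with Benjamini-Hochberg adjustment, called 0% of 16629 genes in each comparison. At an unadjusted p-value under 0.05 they found 274, 283 and 130 genes, and DESeq2 called 0, 1 and 1. 

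Under SR141716A the 8 log2 fold changes against MPTP-SU had a median of -0.35, and 7 of 8 were below 0, where the median over all genes was 0.005. Cemip gave -0.47 ± 0.19 (SE; 95% interval -0.87 to -0.07), Tbr1 -1.76 ± 0.74 (-3.32 to -0.20) and Camk2a -0.47 ± 0.25 (-0.99 to 0.06). Each had an adjusted p-value of 1. Tbr1 rests on the MPTP-SU libraries, which held 2.68, 14.5, 4.24 and 0.22 CPM, against 1.3, 2.09, 1.65 and 1.32 in MPTP-SU+S. The forebrain list had a median of -0.45, with 14 of 15 genes below 0 and 0 past the threshold.

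Under T0070907 the median was -0.11. Hpcal4 gave 0.01 ± 0.17 (95% interval -0.35 to 0.37), Smad3 0.07 ± 0.15 (-0.25 to 0.39) and Nrgn 0.00 ± 0.45 (-0.95 to 0.95). Between the antagonists, with MPTP-SU+T set against MPTP-SU+S, the median was 0.24 and the widest difference was 0.62 ± 0.68 for Neurod6 (-0.80 to 2.04). The intervals of Hpcal4 and Smad3 lay within 1.5-fold of no change in all 3 comparisons. Those of the other 6 genes reached past 1.5-fold on at least one side in each, so the intervals do not exclude a change of that size in them.

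In the spinal cord each of the 8 genes varied less between libraries than in the midbrain. Between the lowest and the highest of 20 libraries, Hpcal4 ran from 57.4 to 71.6 CPM, Camk2a from 141.5 to 165.5, Lamp5 from 193.8 to 230.1, Smad3 from 14.8 to 19.5 and Nrgn from 16.4 to 26.8. Neurod6 stayed between 3.22 and 5.81 CPM and Cemip between 3.77 and 8.86. The highest library exceeded the lowest by 1.17-fold for Camk2a and 1.25-fold for Hpcal4, where the midbrain ratios were 6.34 and 3.56. For Cemip the ratio was 2.35, nearer to its midbrain ratio of 3.78. Tbr1, at 0.058 to 0.485 CPM, a ratio of 8.36, did not pass the filter on low counts in this tissue, so 7 of the 8 were tested.

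MPTP-Veh against Con in the spinal cord gave 0 of 7 genes past the threshold, and 0% of 16682 genes in all. At an unadjusted p-value under 0.05 there were 2137 genes, and DESeq2 called 1. Nrgn gave the widest difference of the 7 at -0.26 ± 0.08 (SE; 95% interval -0.43 to -0.09), with an adjusted p-value of 0.244; its Con libraries held 26.8, 22.4, 22.4 and 23.1 CPM and its MPTP-Veh libraries 21.5, 19.3, 16.4 and 22. Hpcal4 gave 0.07 ± 0.06 (-0.05 to 0.19), Smad3 -0.08 ± 0.07 (-0.23 to 0.07) and Camk2a -0.09 ± 0.04 (-0.17 to 0.00). For Cemip the interval was -0.29 to 0.55. The intervals of Hpcal4, Cemip, Smad3 and Camk2a do not reach the midbrain values of the same genes. The genes were chosen on those midbrain values, which also carry their own error, so nothing is read from this. The difference between the tissues in this step was not itself tested.

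SUEHP against MPTP-Veh, and SR141716A and T0070907 added to SUEHP, likewise gave 0 of 7 genes in the spinal cord, beside 0%, 0% and 0.024% of 16682 genes. The first 2 had 636 and 916 genes at an unadjusted p-value under 0.05, and DESeq2 called 0 and 1. Camk2a under T0070907 came nearest among the 7, at 0.11 ± 0.04 (SE) with an adjusted p-value of 0.292. The forebrain list summed to 306.8 to 335.0 CPM over the 20 spinal cord libraries.

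**Figure D3:**
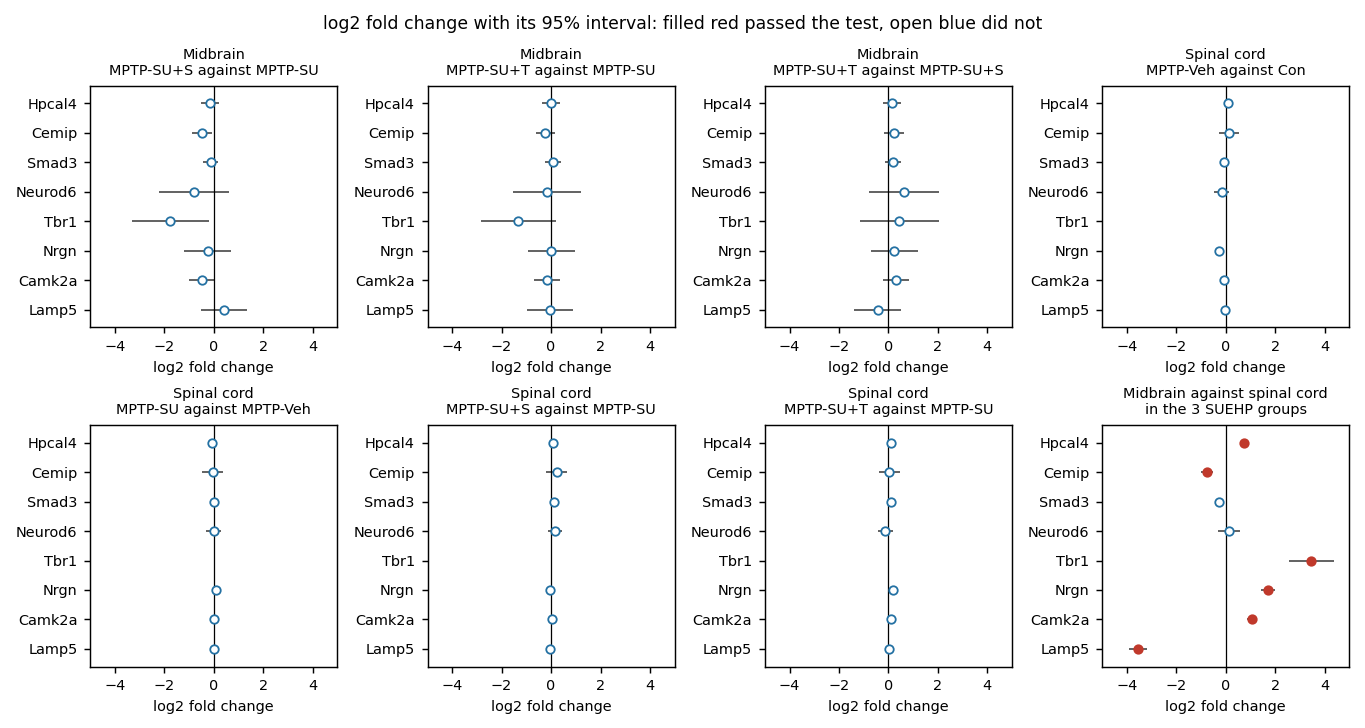
log2 fold change (horizontal axes) of the 8 genes with 95% intervals in the 8 comparisons whose contrasted libraries did not choose them, with filled red points past the threshold and open blue points not past it. No gene passed within either tissue, Tbr1 has no point where it was not tested, the spinal cord intervals are narrow around 0, and 6 of 8 passed between the tissues, 4 toward midbrain and 2, Cemip and Lamp5, toward spinal cord.

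Between the tissues, in the 24 libraries of the 3 SUEHP groups, 6 of the 8 genes passed the threshold, beside 23% of 16995 genes. Tbr1, Nrgn, Camk2a and Hpcal4 were higher in midbrain, by 3.46 ± 0.44 (SE), 1.72 ± 0.14, 1.05 ± 0.09 and 0.73 ± 0.05 on the log2 scale. Lamp5 and Cemip were higher in spinal cord, with midbrain against spinal cord at -3.55 ± 0.18 and -0.77 ± 0.12. The adjusted p-values of the 6 ran from 1.26e-15 for Lamp5 to 3.75e-06 for Cemip. Smad3 was lower in midbrain by 0.26 (adjusted p = 0.00026), a step under 1.5-fold, and Neurod6 did not differ past its error, at 0.13 ± 0.22 (95% interval -0.32 to 0.59). Tbr1 passed the filter on low counts through the midbrain, where it was high.

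As far as these 2 tissues show it, Lamp5 and Cemip go against the label of forebrain-enriched genes. Smad3, lower in midbrain by a step under 1.5-fold, and Neurod6, which did not differ past its error, do not bear it out either. Lamp5 held 193.8 to 230.1 CPM in the 12 spinal cord libraries of these groups and 8.03 to 40 in the 12 midbrain libraries, with CPM scaled in each tissue separately, and the tissues did not overlap. Cemip held 4.29 to 8.86 CPM in the former and 2.59 to 4.77 in the latter, with overlap. No forebrain library was analysed here, so enrichment in the forebrain was not measured. Of the forebrain list 9 of 15 tested genes were higher in midbrain and 1 was lower.

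Whether the genes move together was also asked within groups, where the difference between the means of Con and MPTP plays no part. The Con and MPTP-Veh libraries that chose the genes are among those used. The list was also chosen with earlier results of these data known, so the permutation p-values below are a description. For each gene the log2 CPM of each of the 20 midbrain libraries was taken as its deviation from its group mean, and set against the mean log2 CPM of the 15 tested forebrain list genes. Camk2a followed the list most closely (r = 0.77, permutation p = 0.00074; rho = 0.76, permutation p = 0.00134), then Neurod6 (r = 0.74, permutation p = 0.00399; rho = 0.71, permutation p = 0.0079). Cemip gave r = 0.63 (permutation p = 0.0128; rho = 0.63, p = 0.0138) and Tbr1 r = 0.62 (permutation p = 0.0159; rho = 0.70, p = 0.00612). Hpcal4 gave r = 0.56 (permutation p = 0.0419; rho = 0.56, p = 0.0369). Smad3, Nrgn and Lamp5 gave r = 0.41, 0.36 and 0.23 (permutation p = 0.146, 0.174 and 0.39) and rho = 0.39, 0.43 and 0.19 (permutation p = 0.154, 0.1 and 0.475).

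None of these relations passed the adjustment over all 16629 genes put to the same two-sided test, in which 0 genes did. The adjusted p-value was 0.586 for Camk2a (0.643 for rho) and 0.934 or more for the other 7 (0.971 for rho), and 774 genes, or 4.65%, had an unadjusted p-value under 0.05. The median r of the 8 was 0.59, where that of all genes was 0.02, with 90% of genes between -0.40 and 0.41. With the libraries Con 2 and Con 3 left out, which lay farthest from the median of the list, r was 0.68 for Camk2a, 0.63 for Neurod6, 0.67 for Tbr1, 0.48 for Cemip, 0.39 for Hpcal4, 0.25 for Nrgn, 0.24 for Smad3 and 0.23 for Lamp5. In the 12 SUEHP libraries alone, which did not choose the genes, r was 0.50 for Neurod6, 0.42 for Hpcal4, 0.66 for Camk2a, 0.26 for Cemip and -0.09 for Smad3, all lower than over the 20 libraries. It was 0.70 for Tbr1, 0.55 for Nrgn and 0.27 for Lamp5, all higher. For Nrgn, r was 0.71 without MPTP-Veh 4. Other lists were set against Hpcal4, Cemip and Smad3 in the same way over the 20 libraries, without a test. Smad3 gave r = 0.60 with the SMAD pathway list, 0.59 with astrocyte markers and -0.55 with oligodendrocyte markers. Hpcal4 gave 0.60 with cortical interneuron markers, 0.60 with forebrain transcription factors and 0.58 with calcium sensors. For Cemip the forebrain list gave the highest r. The part that the amount of forebrain tissue in a library has in any of these relations was not tested.

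**Figure D4:**
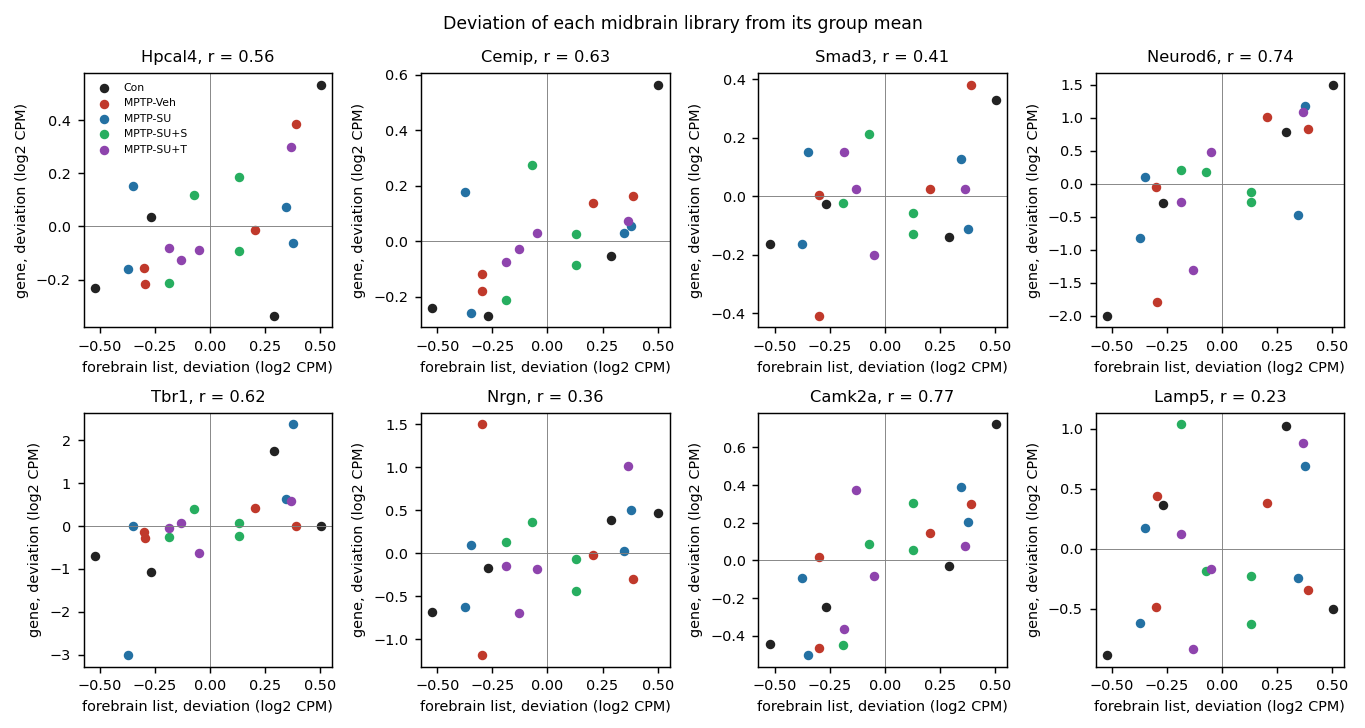
Deviation of each of the 8 genes from its group mean (vertical, log2 CPM) against that of the forebrain list (horizontal, log2 CPM) in the 20 midbrain libraries, coloured by group. Points rise together for Camk2a and Neurod6 and scatter for Lamp5, and the black Con points hold both ends of the horizontal axis.

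Between single genes, the deviations are described without a test. All 3 pairs among Hpcal4, Cemip and Smad3 were positive in midbrain, with r = 0.75 for Hpcal4 and Smad3, 0.61 for Hpcal4 and Cemip and 0.46 for Cemip and Smad3. Of the 15 pairs that join one of these 3 to one of the 5 cortex and hippocampus genes 11 were positive, with a median r of 0.18 and a median rho of 0.385. Camk2a reached 0.75 with Cemip, 0.58 with Hpcal4 and 0.47 with Smad3, and Neurod6 reached 0.52, 0.53 and 0.49. Tbr1 stayed between 0.059 and 0.145 with the same 3, where its rho was 0.281 to 0.394, and Lamp5 between -0.22 and -0.18. Lamp5 went with Nrgn instead (r = 0.66), and against Camk2a (r = -0.34).

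In the spinal cord the 7 tested genes gave 21 pairs, 11 of them positive, with a median of 0.10 against 0.42 over the 28 midbrain pairs. Camk2a and Smad3 gave r = 0.65 there and Cemip and Lamp5 r = -0.78. With the forebrain list the 7 genes gave r from -0.19 for Cemip to 0.35 for Hpcal4, with permutation p-values from 0.281 to 0.698. The points are libraries of 1 tissue that were scaled together.

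**Figure D5:**
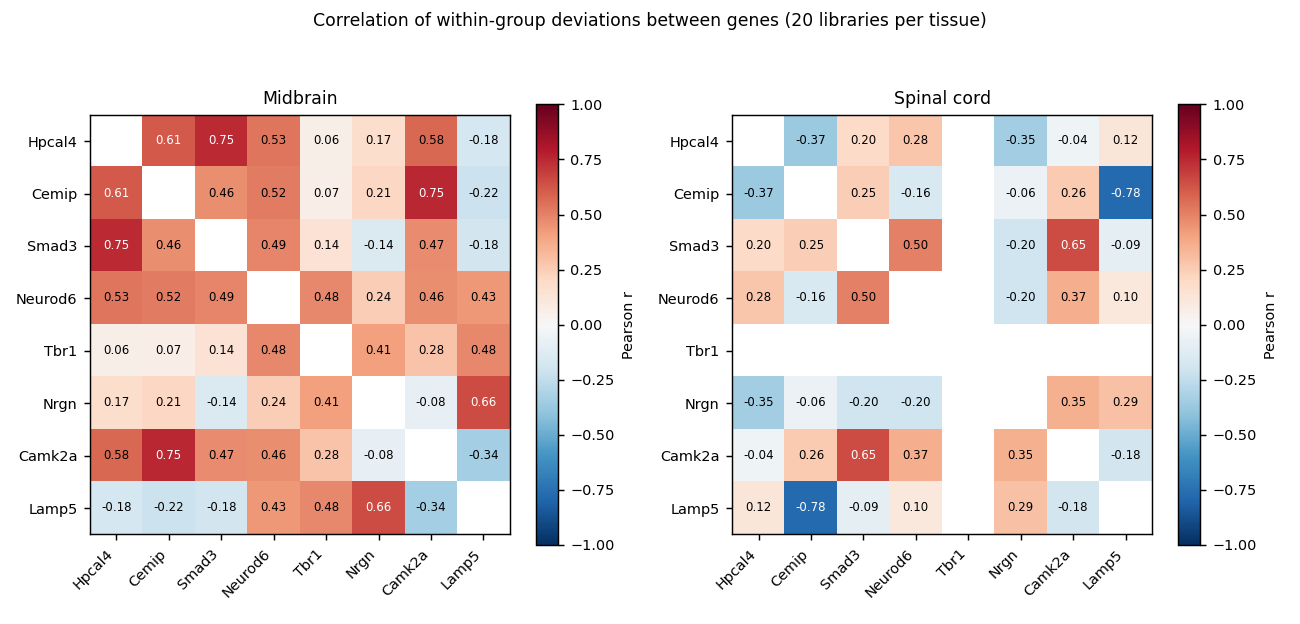
Pearson r of within-group deviations for each pair of the 8 genes over 20 libraries, in midbrain (left) and spinal cord (right, without Tbr1), from blue at -1 to red at 1. In midbrain Hpcal4, Cemip, Smad3, Neurod6 and Camk2a form a block of positive values from 0.46 to 0.75, while Lamp5 and Nrgn pair with each other.

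The genes most like Hpcal4, Cemip and Smad3 in these deviations, among 14952 genes at a mean of 1 CPM or more in the 20 midbrain libraries, included no gene of the forebrain list. For Hpcal4 they included Slc44a5, of the choline transporter-like family (r = 0.90), and Mmd (0.85). For Smad3 they were Map2k1, the kinase MEK1 (0.86), Fig4, a phosphoinositide phosphatase (0.85), and Synpr, the synaptic vesicle protein synaptoporin (0.83). For Cemip the first was Camk2a itself (0.75), followed by Mical2, an enzyme that oxidises actin, and Arel1, a ubiquitin ligase, both at 0.75. Smad3 ranked 47 in likeness to Hpcal4 and Hpcal4 ranked 45 in likeness to Smad3, whereas Lamp5 ranked 10312 and 9282 for the 2 genes.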

How the data were processed

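Polyadenylated RNA was sequenced from CORALL RNA-Seq V2 libraries. The authors used fastp for trimming, STAR for alignment and Salmon for quantification, and the submitters' processing notes also name GATK and the build GRCm39. Versions, annotation and use of molecular identifiers are not given in the sources used here. The deposited values are estimated counts per gene symbol, already rounded to whole numbers and not normalized.

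Counts were analysed in R 4.3.3. Each tissue was fitted in edgeR 4.0.16 over its 20 libraries (filterByExpr, TMM, quasi-likelihood test, Benjamini-Hochberg adjustment over 16629 midbrain or 16682 spinal cord genes). The tissues were compared in 1 fit of the 24 SUEHP libraries with terms for group and tissue. This fit treats the 24 as separate, and the labels do not say whether midbrain and spinal cord libraries share animals. Correlations used log2 CPM with a prior count of 2, TMM scaling and 100000 permutations within groups. The fixed design adjusted these over the 8 genes. They were adjusted over all genes instead, since the 8 had been chosen with results known. The fits were tested on simulated data. Named beside the 8 were the 3 genes most like each of Hpcal4, Cemip and Smad3 and, from each list, up to 3 called genes with the smallest p-value or else the first 2 of the list. Some genes that this rule names are not reported here. The members and lists were chosen with earlier results of these data known. Alternatives were RLE size factors, no filter, DESeq2 1.42.0, only the 8 libraries of a comparison, a term for replicate number, and each library left out in turn. Leaving out MPTP-Veh 4 from every midbrain comparison was added after seeing the data. Replicate numbers are shared between groups, but the labels do not say what they mark. Of 40 same-numbered pairs of libraries of different groups per tissue, 13 in midbrain and 6 in spinal cord had deviations correlated above 0.1. Most of those in midbrain joined MPTP-Veh, MPTP-SU and MPTP-SU+T, with the highest at 0.378. No reference was set for the 0.1 cut, so this does not settle whether the numbers mark pairs. They were not taken as pairs. No 2 libraries held identical counts. A promoter window of Camk2a was not used here.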

Additional observations from a re-analysis of the deposited data

Results flagged for a closer look

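In groups of 4 libraries, a value was singled out where its gap to the nearest of the others was more than Dixon's critical value as a share of the whole range. Of the 80 groups formed by 8 genes, 5 treatments and 2 tissues, 4 met this, where chance gives about 1 in 20.

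Hpcal4 in midbrain MPTP-SU+T replicate 3 was at 136.2 CPM, with the other 3 libraries at 101.6 to 104.8. Lamp5 in midbrain MPTP-SU+S replicate 1 was at 40 CPM, with the others at 12.5 to 17. Cemip in spinal cord MPTP-SU+T replicate 1 was at 4.29 CPM, below the others at 6.53 to 6.61. Nrgn in spinal cord Con replicate 1 was at 26.8 CPM, with the others at 22.4 to 23.1. The causes of these 4 values were not tested.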

How the results depend on the processing

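The counts of the 8 genes called were 0 within the 3 midbrain and 4 spinal cord tests and 6 between the tissues under every alternative run, left-out libraries included. With the replicate block these counts were also 0 and 6, and the block changed no call of the 8 in any of these tests. The median log2 fold change of the 8 for midbrain MPTP-Veh against Con was -1.14 to -1.12 under RLE size factors, no filter, DESeq2, the replicate block and the 8 libraries alone, and -1.24 to -0.90 with 1 library left out.

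Which genes met the call in that comparison was far less stable. Against 3 genes of all tested, RLE gave 3, DESeq2 446, and no filter, the block and the 8 libraries alone gave 0 each. Leaving out Con 1, Con 2, Con 4 or MPTP-Veh 1 gave 0, MPTP-Veh 2 or MPTP-Veh 4 gave 1, Con 3 gave 11 and MPTP-Veh 3 gave 1093. Without MPTP-Veh 4 the 8 genes called moved from 2 to 5 in MPTP-SU against Con, from 2 to 6 in MPTP-SU+T against Con and from 2 to 1 in MPTP-SU against MPTP-Veh, and were 7 both times in MPTP-SU+S against Con; over all genes 127, 26, 2237 and 117 became 786, 292, 572 and 480. In the spinal cord, the count over all genes for MPTP-Veh against Con went from 0 to 19 without the filter and to 58 without Con 2. For T0070907 it went from 4 to 27 without the filter, 13 with the 8 libraries alone and 0 to 3 with 1 library left out. For SUEHP against MPTP-Veh it went from 0 to 5 with the 8 libraries alone, and for SR141716A from 0 to 2 without the filter. The cause was not tested.

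The median within-group r of the 8 with the forebrain list went from 0.59 to 0.46 in the 12 SUEHP libraries (0.459), and ran from 0.464 without Con 2 to 0.628 without Con 1. Per gene, 1022 of 1084 values under an alternative kept their side of the threshold or moved by less than the spread, and the other 62 moved. All 62 were midbrain within-group correlations with the forebrain list and none was a call, so the pooled count says little about how stable those correlations are. Among the 8, Tbr1 and Neurod6 had the largest standard errors in the midbrain.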
